A study of Saccharomyces cerevisiae with 6 samples.

Results

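The long genes described here are the nuclear genes of Saccharomyces cerevisiae whose names start with Y, which fill a single line of the deposited tables and which span at least 4000 bp between the annotated start and end. There were 190 such genes among the 7126 genes in the tables, or 190 of the 6365 single-line nuclear genes. The lengths are coding lengths, all multiples of a codon, and ran from 4002 to 14733 bp with a median of 4732.5 bp. Of the 190 genes, 118 were under 5000 bp, 35 were from 5000 bp to under 6000 bp and 37 were at least 6000 bp long. All 190 are protein-coding in RefSeq and have the same coordinates there, on the R64 assembly. Just inside the length threshold stood PDR18 at 4002 bp, SEC3 at 4011 bp and POM152 at 4014 bp, and just outside it stood SPT7, which is 1 codon longer than SSK22 at 3996 bp, and ADR1 at 3972 bp.

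Transcribing a gene means passing RNA polymerase II through the nucleosomes over its body, and a long gene holds more of them to open and rebuild than a short one. Spt6 is a histone chaperone that travels with elongating RNA polymerase II and puts nucleosomes back behind it, and casein kinase 2 is a protein kinase, with the catalytic subunits Cka1 and Cka2, that phosphorylates Spt6. In yeast, loss of Spt6 function is known for letting transcription start inside gene bodies, on either strand, so that RNA antisense to a gene and RNA from its downstream end only are classical readouts.

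The libraries came from 3 strains, each with 2 libraries, all in a background described as isogenic to S288C. The ck2ts strain carried cka1Δ0::KanMX6 and cka2D225N::NAT, that is, a deletion of one catalytic subunit and a changed copy of the other. The spt6-7SA strain carried spt6D::kanMX6 and lived on the plasmid pcc11, a CEN and URA3 plasmid with FLAG-spt6 7S-A, and it also carried his3D200, ura3Δ0, bar1D::KanMX6 and IWS1-13MYC::HIS3. The WT strain carried neither change in casein kinase 2 or Spt6. All 3 strains were mat a with leu2D1 and lys2-128d, so the control carried these too. The ck2ts and WT strains also shared bar1D::NAT and the allele ura3-52 with the insert HHF1-PGAL1/10-FLAG-HHT1-URA3, which holds histone genes under the galactose-inducible GAL1/10 promoter and which the spt6-7SA strain is not described as carrying. Cultures were grown at 30 °C in YPD until the OD600 was 0.5 and then held at 39 °C for 2 h before total RNA was taken, so none of the values below is from unshifted cells. Each strain is 1 isolate, and the labels do not say whether the 2 libraries of a strain came from separate cultures, so the tests measure the spread between these libraries, which may be technical.

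In each gene the authors counted reads on the coding strand (sense) and on the other strand (antisense), for the whole gene and for a 5′ and a 3′ part. Sense reads totalled 56307173 to 83375420 per library, of which the long genes took 3828758 to 5369495, and antisense reads in the long genes totalled 38423 to 80121. Levels are given as CPM, reads scaled to the size of the library. CKA1 was at 3.13 and 1.84 CPM in the ck2ts libraries, 49.5 and 56.6 CPM in the spt6-7SA libraries and 61.9 and 60.5 CPM in the WT libraries. STE2, a receptor gene expressed in mat a cells, was at 96.9 and 105 CPM in ck2ts, 354 and 341 CPM in spt6-7SA and 202 and 156 CPM in WT, and SAG1, a gene of the opposite mating type, was at 80.8 and 68.6 CPM in ck2ts, 43.5 and 38.0 CPM in spt6-7SA and 29.7 and 24.3 CPM in WT. Other mating-type genes did not all follow these. MFA1 and MFA2 had the strains in the order of STE2, but ASG7, also a mat a gene, was at 6.4 and 6.3 CPM in ck2ts, 3.3 and 3.6 CPM in spt6-7SA and 3.2 and 3.8 CPM in WT. Of the opposite type, STE3 was at 19.5 and 22.9 CPM in ck2ts, 24.7 and 25.2 in spt6-7SA and 11.9 and 14.2 in WT. MF(ALPHA)1 was at 4.34 and 2.56 CPM in ck2ts, 4.62 and 3.71 in spt6-7SA and 1.03 and 1.05 in WT. MF(ALPHA)2 was at 3.67 and 2.71 CPM in ck2ts, 0.72 and 0.78 in spt6-7SA and 0.31 and 0.31 in WT. Like SAG1, these genes were above WT in both mutants with no overlap of libraries. Both kinds of transcript were thus present in libraries of every strain, some at low levels. Their part in the results below was not tested. The ck2ts libraries stood furthest apart on the antisense strand, where replicate 1 was the higher of the pair.

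The share of nuclear sense reads taken by the long genes overlapped between the strains. It was 8.28 and 9.27% in ck2ts, 8.39 and 8.77% in spt6-7SA and 8.58 and 8.80% in WT, and the libraries of WT lay within the range of ck2ts and overlapped those of spt6-7SA (two-sided exact permutation tests, p = 1 for ck2ts and p = 0.667 for spt6-7SA, where 2 against 2 libraries cannot go below 0.33). Read counts are shares of a library, so fewer cells and less RNA per cell cannot be told apart in any value below. Per kilobase of coding length the long genes had a median sense level of 37.5 to 41.2 CPM, against 29.5 to 30.6 CPM for the other single-line nuclear genes, and 0 of the 190 were without sense reads in any library. FAS1, the beta subunit of fatty acid synthase, had the highest sense level per kilobase, at 945 and 1259 CPM in ck2ts, 586 and 639 CPM in spt6-7SA and 892 and 875 CPM in WT.

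Within the class, sense reads of 60 long genes rose and those of 46 fell in ck2ts against WT (edgeR's quasi-likelihood test, Benjamini-Hochberg adjusted p under 0.05 over all genes). These 106 genes are 55.8% of the long genes, where 64.8% of all genes tested were called, 32.5% upward and 32.3% downward. The median log2 fold change of the long genes was 0.09, and 18 of them changed by at least 2-fold. The balance of rises and falls rested on 1 library, since without ck2ts replicate 2 it was 47 up and 52 down. In spt6-7SA against WT, 47 long genes rose and 30 fell, which is 40.5% of them where 50.8% of all genes were called (26.7% upward and 24.1% downward), with a median of 0.02. A single long gene, CAT8, changed by at least 2-fold there. Both comparisons use the same WT libraries. The spt6-7SA share dropped to 20% without spt6-7SA replicate 1, to 21.1% without spt6-7SA replicate 2 and to 22.1% without WT replicate 1, so calls named below are given with the library on which they rest.

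**Figure D1:**
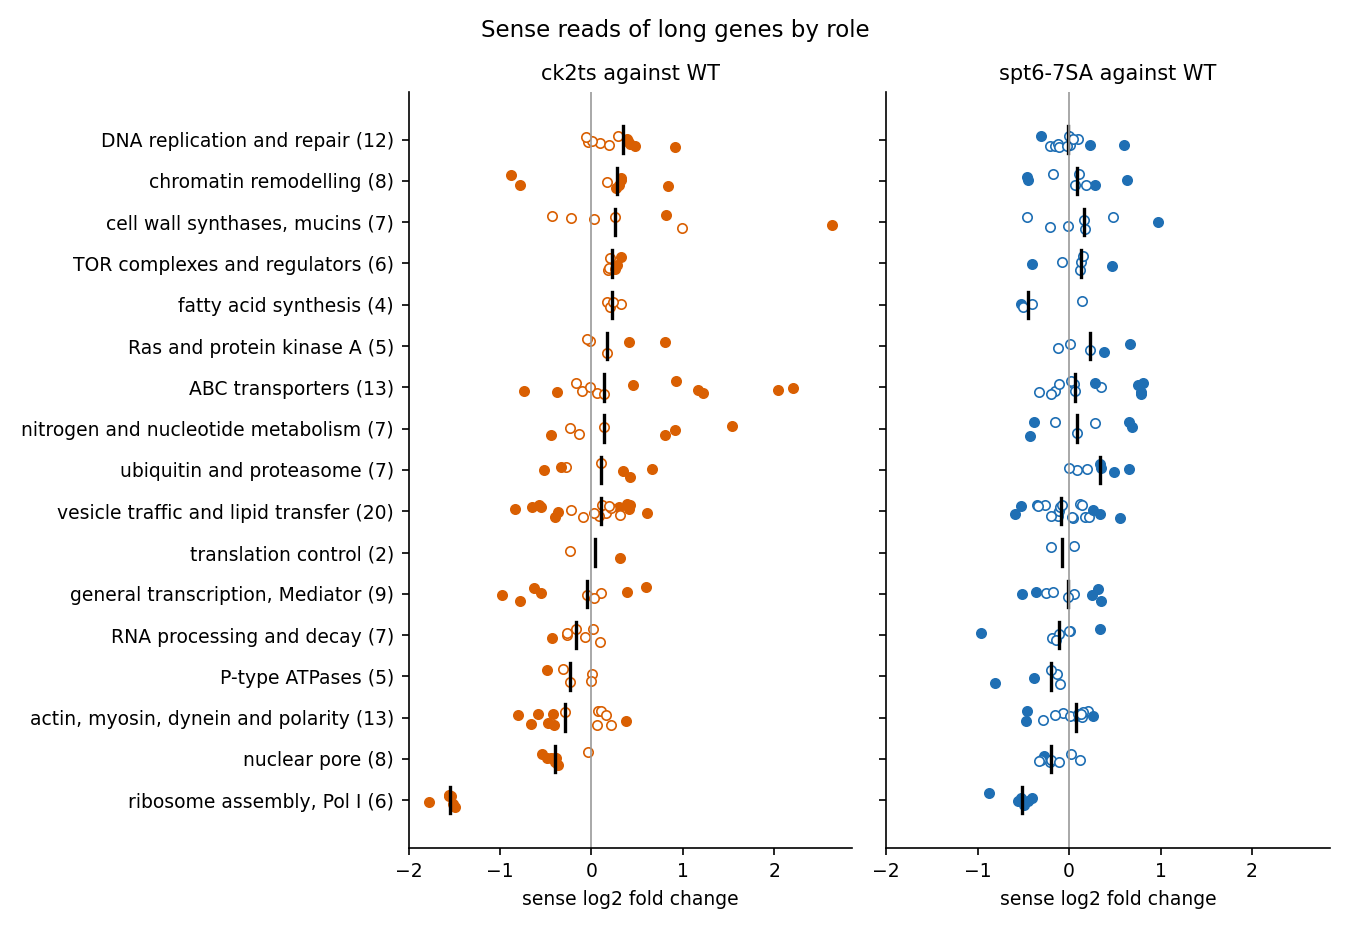
Log2 fold change of sense reads for the long genes of the role lists shown, with ck2ts against WT in the left panel and spt6-7SA against WT in the right panel (both on the same x scale); each point is a gene, filled where the adjusted p was under 0.05, the bar is the median and the number of genes is in brackets. The 6 genes of ribosome assembly and RNA polymerase I are at the bottom, with medians of -1.55 in ck2ts, where they lie apart from the other lists, and -0.51 in spt6-7SA.

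Long genes that build ribosomes were lower than WT in both mutants. All 6 on the list of ribosome assembly and RNA polymerase I fell in ck2ts, with a median log2 fold change of -1.55, and all 6 fell in spt6-7SA, with a median of -0.51. They are REA1, the AAA-type ATPase that strips assembly factors from the large subunit and the longest gene of all; UTP20 and UTP10, scaffold proteins of the small-subunit processome; RRP5, which acts on both subunits; URB1, needed early in large-subunit assembly; and RPA190, the largest subunit of RNA polymerase I. The stretch from 250 bases before to 50 bases after the start of each of the 6 genes is printed here because all 6 moved together. The sequences are of the R64 assembly, read 5′ to 3′ on the gene's own strand, and the capitals mark the 2 motifs searched on both strands. These are PAC, written GATGAG or CTCATC, and RRPE, written AAAATTTT, both known in yeast from the promoters of ribosome assembly genes. The windows are chr12:363689-363988 (minus strand) for REA1, chr2:227386-227685 (plus) for UTP20, chr10:217260-217559 (minus) for UTP10, chr13:731074-731373 (minus) for RRP5, chr11:416864-417163 (minus) for URB1 and chr15:960737-961036 (plus) for RPA190.
REA1: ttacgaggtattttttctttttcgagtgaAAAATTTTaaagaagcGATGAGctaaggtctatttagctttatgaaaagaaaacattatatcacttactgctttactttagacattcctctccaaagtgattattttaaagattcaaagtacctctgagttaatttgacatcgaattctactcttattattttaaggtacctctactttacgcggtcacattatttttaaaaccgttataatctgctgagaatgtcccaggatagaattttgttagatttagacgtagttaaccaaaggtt
UTP20: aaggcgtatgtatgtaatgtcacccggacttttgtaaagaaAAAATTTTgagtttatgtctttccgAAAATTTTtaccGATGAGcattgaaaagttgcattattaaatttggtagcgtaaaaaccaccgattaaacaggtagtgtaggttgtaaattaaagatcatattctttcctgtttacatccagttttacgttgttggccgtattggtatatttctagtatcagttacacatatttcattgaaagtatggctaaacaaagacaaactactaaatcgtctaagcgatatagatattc
UTP10: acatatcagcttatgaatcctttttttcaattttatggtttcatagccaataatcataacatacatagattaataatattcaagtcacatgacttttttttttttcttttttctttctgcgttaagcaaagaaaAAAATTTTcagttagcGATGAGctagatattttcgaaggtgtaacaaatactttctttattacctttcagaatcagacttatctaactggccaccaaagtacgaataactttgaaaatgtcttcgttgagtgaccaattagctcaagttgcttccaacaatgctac
RRP5: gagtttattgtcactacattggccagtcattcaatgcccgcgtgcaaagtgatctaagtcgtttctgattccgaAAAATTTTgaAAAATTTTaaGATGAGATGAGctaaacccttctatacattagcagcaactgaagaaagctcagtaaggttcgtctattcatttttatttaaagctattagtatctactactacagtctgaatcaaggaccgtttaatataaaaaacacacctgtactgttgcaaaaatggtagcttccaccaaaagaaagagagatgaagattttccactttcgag
URB1: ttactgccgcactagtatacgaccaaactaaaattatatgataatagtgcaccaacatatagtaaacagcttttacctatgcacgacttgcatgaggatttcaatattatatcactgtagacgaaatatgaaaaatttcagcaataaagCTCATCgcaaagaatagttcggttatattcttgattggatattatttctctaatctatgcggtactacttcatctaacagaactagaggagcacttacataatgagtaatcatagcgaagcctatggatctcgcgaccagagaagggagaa
RPA190: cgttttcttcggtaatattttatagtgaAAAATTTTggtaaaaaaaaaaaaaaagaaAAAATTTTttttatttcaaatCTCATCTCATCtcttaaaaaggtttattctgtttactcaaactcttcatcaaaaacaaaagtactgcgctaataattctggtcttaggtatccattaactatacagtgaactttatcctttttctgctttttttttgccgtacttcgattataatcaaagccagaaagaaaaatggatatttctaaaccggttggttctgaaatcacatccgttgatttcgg

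PAC was found in 6 of the 6 windows and RRPE in 5 of the 6, all except URB1. Over the 5664 protein-coding genes with such a window, 20.4% held PAC and 9.22% held RRPE, and over all 190 long genes 15.8% and 8.95% did. In RRP5 and RPA190 a pair of PAC matches overlap, 156 and 151 bases before the start of RRP5 and 172 and 167 bases before that of RPA190. PAC lies nearest to the start in UTP10, 100 bases before it, and URB1, 101 bases before it. A match is a run of letters and not a shown binding site.

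REA1 (YLR106C, chromosome XII 349006 to 363738) was at 476 and 533 CPM in ck2ts, 1031 and 1113 CPM in spt6-7SA and 1362 and 1470 CPM in WT. Its libraries did not overlap between any of the strains, with ck2ts lowest and WT highest. The log2 fold change was -1.49 ± 0.13 (SE, adjusted p = 4.91e-05) in ck2ts and -0.40 ± 0.12 in spt6-7SA (adjusted p = 0.0287), and the second call was lost with any single library left out (adjusted p 0.0604 to 0.189). URB1 (YKL014C, chromosome XI 411619 to 416913) fell furthest in ck2ts, to 122 and 143 CPM, with 335 and 313 CPM in spt6-7SA and 473 and 439 CPM in WT. Its log2 fold change was -1.78 ± 0.11 in ck2ts (adjusted p = 1.84e-05) and -0.49 in spt6-7SA (adjusted p = 0.00806, but 0.0678 without spt6-7SA replicate 2). UTP10 (YJL109C, chromosome X 212000 to 217309) was the gene of the list most reduced in spt6-7SA, at 289 and 359 CPM in ck2ts, 503 and 500 CPM in spt6-7SA and 927 and 918 CPM in WT. It fell by 1.51 in ck2ts on the log2 scale (adjusted p = 5.35e-05) and by 0.88 in spt6-7SA (adjusted p = 0.0015), and both calls held with each library left out in turn. RPA190 (YOR341W) was at 466 and 528 CPM in ck2ts, 1063 and 1078 CPM in spt6-7SA and 1489 and 1439 CPM in WT. The calls in spt6-7SA were lost for RRP5 (adjusted p = 0.0663 without spt6-7SA replicate 1) and UTP20 (adjusted p = 0.079 without spt6-7SA replicate 2). With 1 library left out, the number of the 6 that fell stayed at 6 in ck2ts and was between 1 and 5 in spt6-7SA, lowest without spt6-7SA replicate 2, while the median stayed between -0.57 and -0.47 there. The list overlaps the ribosome biogenesis genes that earlier work on these libraries had already reported as lower, so its direction is not independent evidence.

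**Figure D2:**
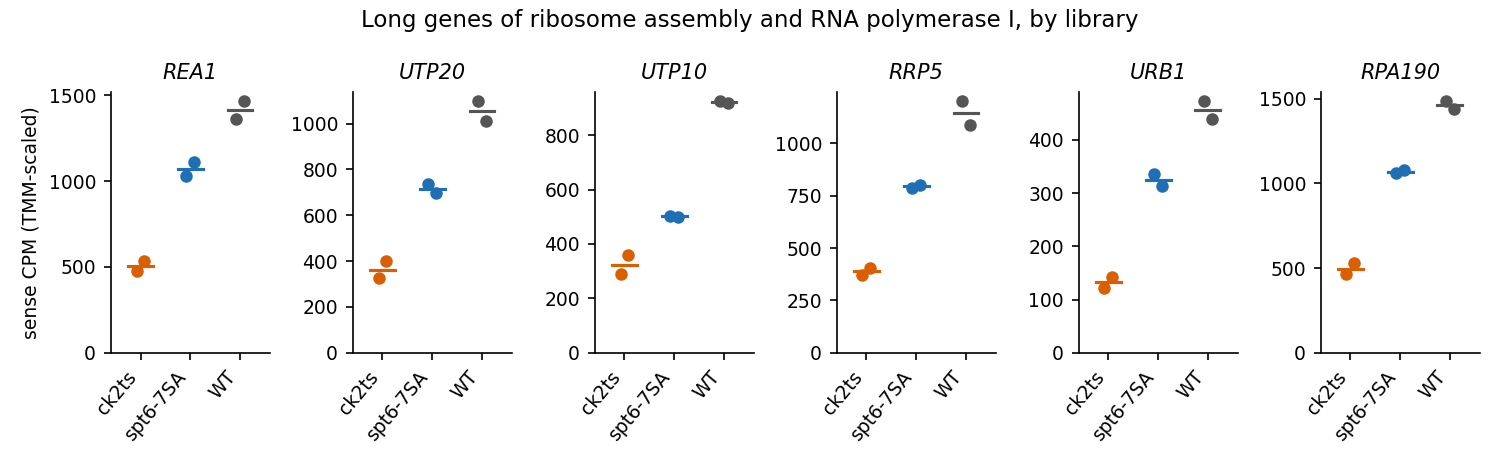
Sense CPM of the 6 long genes of ribosome assembly and RNA polymerase I in each library, in the order ck2ts, spt6-7SA and WT; points are libraries, bars are means of 2, and each panel has its own y axis from 0. In every panel ck2ts is lowest, spt6-7SA lies between and WT is highest, with no overlap.

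Outside this list, TRM732 and TRM3 were among the largest falls in ck2ts. TRM732, a partner of a tRNA 2′-O-methyltransferase, was at 100 and 115 CPM in ck2ts, 153 and 155 CPM in spt6-7SA and 273 and 273 CPM in WT. It fell by 1.34 in ck2ts (adjusted p = 2.34e-05) and by 0.82 in spt6-7SA (adjusted p = 0.00062) on the log2 scale. TRM3, a tRNA ribose methyltransferase, was at 147 and 173 CPM in ck2ts, 240 and 256 CPM in spt6-7SA and 328 and 323 CPM in WT, and fell by 1.02 in ck2ts (adjusted p = 0.000104). RPO31, the largest subunit of RNA polymerase III, which makes tRNA, fell by 0.98 in ck2ts (263 and 312 CPM in ck2ts, 556 and 578 CPM in WT, adjusted p = 0.000195). RPO41, the polymerase of mitochondria, passed in neither mutant, at 245 and 292 CPM in ck2ts, 258 and 257 CPM in spt6-7SA and 263 and 274 CPM in WT.

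Nuclear pore genes were lower in ck2ts by a smaller amount. Of 8 long nucleoporin genes, 7 fell in ck2ts, all except MLP1, and in spt6-7SA NUP170 alone fell. With 1 library left out 4 to 6 of the 8 passed in ck2ts, the fewest without WT replicate 1. NUP170, an inner-ring nucleoporin, was at 267 and 279 CPM in ck2ts, 334 and 323 CPM in spt6-7SA and 420 and 374 CPM in WT, with a log2 fold change of -0.54 in ck2ts (adjusted p = 0.00175). Its fall in spt6-7SA was no longer called without spt6-7SA replicate 2 (adjusted p = 0.223).

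Of 13 long genes for actin, myosin, dynein and polarity, 6 fell and PAN1 rose in ck2ts, and MYO4 and BUD3 fell and BNR1 rose in spt6-7SA. MYO2, the myosin that carries vesicles and organelles into the bud, was at 305 and 348 CPM in ck2ts, 456 and 484 CPM in spt6-7SA and 591 and 553 CPM in WT, and fell by 0.81 in ck2ts on the log2 scale (adjusted p = 0.000435). DYN1, dynein's heavy chain and the gene next to REA1 in length, was at 206 and 290 CPM in ck2ts, 367 and 416 CPM in spt6-7SA and 348 and 396 CPM in WT. Its fall of 0.58 in ck2ts (adjusted p = 0.0185) was lost without WT replicate 2 (0.0923).

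FKS3, PDR11, GDB1, DUR12 and CAT8 were among the largest sense gains of the long genes. FKS3 (YMR306W, chromosome XIII 881159 to 886516), a relative of the glucan synthase genes, was at 116 and 102 CPM in ck2ts, 35.2 and 33.8 CPM in spt6-7SA and 16.8 and 18.5 CPM in WT. That is 6.18-fold above WT in ck2ts (log2 2.63 ± 0.10, adjusted p = 6.1e-06) and 1.96-fold in spt6-7SA (adjusted p = 0.000463). PDR11, a sterol-importing ABC transporter, rose 4.59-fold in ck2ts (adjusted p = 1.41e-05) and did not pass in spt6-7SA, with 94.9 and 82.2 CPM in ck2ts, 18.8 and 21.4 CPM in spt6-7SA and 18.5 and 20.1 CPM in WT. GDB1, the glycogen debranching enzyme, was at 564 and 613 CPM in ck2ts, 261 and 257 CPM in spt6-7SA and 120 and 155 CPM in WT (4.29-fold, adjusted p = 1.96e-05, and 1.89-fold, adjusted p = 0.00145). DUR12, the urea amidolyase that releases ammonia from urea, was at 330 and 316 CPM in ck2ts, 174 and 183 CPM in spt6-7SA and 105 and 117 CPM in WT. CAT8, an activator of genes for growth on non-fermentable carbon, reached 40.7 and 35.6 CPM in ck2ts and 37.2 and 34.3 CPM in spt6-7SA, against 14.5 and 14.9 CPM in WT. The rise was 2.6-fold in ck2ts (adjusted p = 3.01e-05) and 2.44-fold in spt6-7SA (adjusted p = 0.000222).

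Among the 13 ABC transporters 6 rose in ck2ts, YBT1 and PDR5 fell and 5 missed the threshold. In spt6-7SA 5 rose, 0 fell and 8 did not pass. PDR10, PDR12, PDR15 and PDR18, relatives of the drug pump gene PDR5, rose in both. PDR10 was at 261 and 205 CPM in ck2ts, 169 and 176 CPM in spt6-7SA and 91.8 and 108 CPM in WT, and PDR12, a pump for weak organic acids, was at 138 and 130 CPM in ck2ts, 118 and 129 CPM in spt6-7SA and 59.0 and 82.8 CPM in WT. With 1 library left out, 6 or 7 of the 13 passed in ck2ts and 4 or 5 in spt6-7SA.

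Several long genes with roles in signalling and DNA repair rose. As the shares to set beside each role list, 31.6% of all long genes rose and 24.2% fell in ck2ts. In spt6-7SA 24.7% rose and 15.8% fell. RIM15, a kinase of the entry into quiescence, was at 314 and 280 CPM in ck2ts, 280 and 260 CPM in spt6-7SA and 174 and 166 CPM in WT (log2 0.81, adjusted p = 0.000223, and 0.67, adjusted p = 0.00138). REV3, the catalytic subunit of the translesion polymerase zeta, was at 76.7 and 78.2 CPM in ck2ts, 61.2 and 63.4 CPM in spt6-7SA and 41.1 and 41.1 CPM in WT (log2 0.92, adjusted p = 4.76e-05, and 0.60, adjusted p = 0.000942). On the list of 12 DNA replication, repair and chromosome genes 5 rose and none fell in ck2ts, and 3 to 7 passed with 1 library left out, the fewest without WT replicate 1. Among 8 chromatin genes, 5 rose in ck2ts, among them SNT2 of a histone deacetylase complex at 129 and 129 CPM against 73.1 and 71.8 CPM in WT. STH1, the ATPase of the RSC remodeller, fell, to 110 and 115 CPM in ck2ts and 150 and 153 CPM in spt6-7SA, against 218 and 196 CPM in WT (log2 -0.88, adjusted p = 0.000104, and -0.45, adjusted p = 0.00471).

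The other role lists held calls in both directions. Of 20 long genes for vesicle traffic and lipid transfer, 5 rose and 6 fell in ck2ts and 3 rose and 3 fell in spt6-7SA. FMP27, a bridge-like lipid transfer protein, was at 387 and 465 CPM in ck2ts, 419 and 401 CPM in spt6-7SA and 265 and 294 CPM in WT (log2 0.61 in ck2ts, adjusted p = 0.00277), while LAA1, a partner of the clathrin adaptor AP-1, was at 118 and 151 CPM in ck2ts, 138 and 143 CPM in spt6-7SA and 207 and 216 CPM in WT (log2 -0.65, adjusted p = 0.00229, and -0.59, adjusted p = 0.0061). FMP27 was thus above WT and LAA1 below WT in both mutants, with no overlap of libraries. Of 7 ubiquitin and proteasome genes 3 rose and 2 fell in ck2ts and 4 rose and 0 fell in spt6-7SA. One of them, ECM29, a proteasome-binding protein, was at 291 and 358 CPM in ck2ts, 483 and 474 CPM in spt6-7SA and 286 and 320 CPM in WT (log2 0.66 in spt6-7SA, adjusted p = 0.00408). Of 7 nitrogen, amino acid and nucleotide genes 3 rose and 1 fell in ck2ts and 2 rose and 2 fell in spt6-7SA, and MET5, a subunit of sulphite reductase, was at 201 and 206 CPM in ck2ts, 171 and 167 CPM in spt6-7SA and 102 and 114 CPM in WT. Of 9 general transcription genes 2 rose and 4 fell in ck2ts and 3 rose and 2 fell in spt6-7SA, and of 7 RNA processing genes 0 rose and 1 fell in ck2ts and 1 rose and 1 fell in spt6-7SA. For the remaining lists, counts of rises and falls in ck2ts were 3 and 0 of 6 TOR genes, 2 and 0 of 5 Ras and protein kinase A genes, 2 and 0 of 7 cell wall genes, 0 and 1 of 5 P-type ATPases and 0 and 0 of 4 fatty acid genes. In spt6-7SA they were 1 and 1 for TOR, 2 and 0 for Ras and protein kinase A, 1 and 0 for the cell wall, 0 and 2 for P-type ATPases and 0 and 1 for fatty acids. Of the 8 near-identical subtelomeric and VPS10-related genes, whose reads cannot be assigned to 1 copy, 6 rose in ck2ts and 7 in spt6-7SA.

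Some of these counts rested on 1 library. In ck2ts, 0 near-identical genes and 2 ubiquitin and proteasome genes passed without WT replicate 1, and without WT replicate 2 the count was 0 for TOR and P-type ATPase genes and 3 for chromatin genes. In spt6-7SA, with 1 library left out, 2 to 4 vesicle genes, 1 or 2 transcription genes, 2 or 3 ubiquitin and proteasome genes, 2 nitrogen and nucleotide genes and 0 fatty acid genes passed, with the fewest in the first 3 lists without WT replicate 1. Of the 13 actin, motor and polarity genes 1 passed in spt6-7SA without spt6-7SA replicate 1.

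Falls in spt6-7SA were also found outside the ribosome list. SLH1 (YGR271W, chromosome VII 1031791 to 1037694), a helicase that clears collided ribosomes, was at 199 and 220 CPM in ck2ts, 102 and 100 CPM in spt6-7SA and 193 and 201 CPM in WT. It fell by 0.96 ± 0.09 on the log2 scale in spt6-7SA (adjusted p = 0.000313) and was the long gene most reduced there. DRS2, a lipid flippase of the late Golgi, was at 156 and 197 CPM in ck2ts, 131 and 151 CPM in spt6-7SA and 242 and 252 CPM in WT (log2 -0.81, adjusted p = 0.00215 in spt6-7SA). FAS1 was lower in spt6-7SA by the call, but the call was lost with any single library left out (adjusted p 0.101 to 0.185).

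SPT6 and LYS2, genes that the strains' constructs touch, are both long genes. SPT6 was at 239 and 261 CPM in ck2ts, 511 and 423 CPM in spt6-7SA, where the labels place the gene on a plasmid, and 387 and 346 CPM in WT. Its log2 fold change was -0.55 ± 0.12 in ck2ts (adjusted p = 0.00556) and 0.35 ± 0.12 in spt6-7SA (adjusted p = 0.047, but 0.303 without spt6-7SA replicate 1). LYS2, which carries the lys2-128d insertion in every strain, passed in neither mutant over the whole gene, at 111 and 119 CPM in ck2ts, 109 and 113 CPM in spt6-7SA and 103 and 105 CPM in WT. The other genes among the 6 longest were TRA1, which fell by 0.78 in ck2ts (adjusted p = 0.00144), and TOM1, VPS13 and IRA1, which did not pass in either mutant.

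Set directly against each other, the mutants differed in sense reads of many of the genes above. In spt6-7SA against ck2ts, sense reads of 31 long genes were higher and 40 lower, which is 37.4% where 52.4% of all genes were called, and the share was 23.2% without spt6-7SA replicate 1 and 23.7% without spt6-7SA replicate 2. Without ck2ts replicate 2 the balance turned to 40 higher and 32 lower. All 6 ribosome assembly genes were higher in spt6-7SA, also with any 1 library left out, by 1.29 for URB1 (adjusted p = 0.000145) and 1.11 for RPA190 (adjusted p = 0.000315) on the log2 scale. PDR11 was lower in spt6-7SA by 2.14 (log2 -2.14, adjusted p = 3.1e-05) and FKS3 by 1.66 (log2 -1.66, adjusted p = 4.76e-05).

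The balance of sense reads between the ends of a gene asks whether reads were lost or gained towards the 3′ end. In tests of gene parts, here and below, all genes means the single-line nuclear genes of at least 1000 bp that were tested. In ck2ts the 3′ part changed against the 5′ part in 14 long genes, 5 upward and 9 downward, which is 7.37% where 3.04% of all genes were called and 0.626% were called downward. In spt6-7SA 0 long genes passed in edgeR's quasi-likelihood test, where 0.895% of all genes were called, and 14 had an unadjusted p under 0.05. With a block for replicate number more long genes passed in both mutants, as given with the processing at the end. REA1 had 3′ to 5′ read ratios of 0.307 and 0.303 in ck2ts, 0.636 and 0.687 in spt6-7SA and 0.607 and 0.590 in WT (log2 -0.97 ± 0.15 in ck2ts, adjusted p = 0.0204). DYN1 had ratios of 0.856 and 0.965 in ck2ts, 1.58 and 1.56 in spt6-7SA and 1.87 and 1.80 in WT (log2 -1.02, adjusted p = 0.0169). URB1 and UTP20 fell likewise, by 0.84 each on the log2 scale. The 9 genes that fell were mostly of greater length than the 5 that rose: 1 was under 5000 bp, 2 were from 5000 bp to under 6000 bp and 6 were at least 6000 bp long, whereas all 5 that rose were under 5000 bp. The median log2 change in the ck2ts ratio was -0.01, -0.08 and -0.21 in these length classes. The number of genes that passed was 0 without WT replicate 1, 2 without WT replicate 2, 4 without ck2ts replicate 1 and 6 without ck2ts replicate 2, so each call named here was lost in at least 1 of these.

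LYS2 had the largest rise of the sense ratio in ck2ts. Its 5′ part had 899 and 636 sense reads in ck2ts, 2863 and 2555 in spt6-7SA and 3598 and 2204 in WT, while its 3′ to 5′ ratio was 1.16 and 1.72 in ck2ts, 0.287 and 0.372 in spt6-7SA and 0.200 and 0.312 in WT. The log2 change was 2.50 ± 0.27 in ck2ts (adjusted p = 0.00792, but 0.0778 without WT replicate 1).

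On the antisense strand most long genes rose in ck2ts. Antisense reads made up 2.03 and 1.39% of all reads in long genes in ck2ts and 1.17 and 1.20% in spt6-7SA, against 0.921 and 0.966% in WT, and both mutants lay above both WT libraries (two-sided exact permutation test, p = 0.333 each, the smallest that 2 against 2 libraries allow). Leaving out the 24 long genes that overlap an annotated gene on the other strand, the shares were 1.63 and 1.13% in ck2ts, 0.877 and 0.886% in spt6-7SA and 0.650 and 0.699% in WT. By gene, antisense reads of 136 long genes rose and those of 9 fell in ck2ts, which is 76.3% where 62% of all genes were called and 48.2% were called upward. The median log2 fold change of the long genes was 1.37, against 0.62 for all genes tested. The 1063 genes from 2000 bp to under 4000 bp were much like the long genes here, with 76.3% called, 70.7% upward, and a median of 1.40. In spt6-7SA 59 rose and 28 fell, which is 45.8% where 41.7% of all genes were called and 31.3% upward, with a median of 0.23 against 0.30. With antisense libraries scaled to their own totals in place of the sense totals, 106 rose and 24 fell in ck2ts (median 0.82) and 43 rose and 45 fell in spt6-7SA (median -0.06), and the median of all genes was 0.08 and -0.00, so the lean towards rises in spt6-7SA depends on that scaling. Without ck2ts replicate 1, the higher library, the ck2ts count was 105 up and 14 down.

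Gains in ck2ts, called in 71.6% of all long genes, were found in nearly every role. All 5 P-type ATPases (flippases and cation pumps), all 5 Ras and protein kinase A genes and all 7 nitrogen and nucleotide genes rose, as did 11 of 13 ABC transporters, 11 of 13 actin and motor genes, 16 of 20 vesicle genes and 5 of 6 ribosome assembly genes. The 8 near-identical genes had 1 rise. In spt6-7SA antisense reads rose in 31.05% of all long genes and 31.3% of all genes tested. By role, 3 of the 5 P-type ATPases, 2 of the 5 Ras and protein kinase A genes and 4 of the 13 ABC transporters rose there. So did 7 of the 20 vesicle genes, 1 of the 13 actin and motor genes and 1 of the 6 ribosome assembly genes. Ubiquitin and proteasome genes rose in 6 of 7 cases in ck2ts (4 to 7 passed with 1 library left out, the fewest without WT replicate 1) and in 0 of 7 in spt6-7SA.

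The genes with the largest gains had between 0.150 and 1.24 antisense CPM in WT. NUP159 (YIL115C, chromosome IX 144327 to 148709), a nucleoporin of the pore's cytoplasmic face, had 27.3 and 12.6 antisense CPM in ck2ts and 2.66 and 2.79 CPM in spt6-7SA, against 0.324 and 0.535 CPM in WT. Its log2 fold change was 5.57 ± 0.47 in ck2ts (adjusted p = 4.91e-05) and 2.70 in spt6-7SA (adjusted p = 0.00411, but 0.0598 without spt6-7SA replicate 2). NUP159 overlaps an annotated gene on the other strand, so its antisense reads may belong to that gene. NUP192, an inner-ring nucleoporin with no such overlap, had 8.81 and 4.54 CPM in ck2ts, 0.406 and 0.586 CPM in spt6-7SA and 0.150 and 0.190 CPM in WT (log2 5.31 in ck2ts, adjusted p = 1.58e-08). PMD1 (chromosome V 425188 to 430449), a negative regulator of early meiotic genes, had 22.9 and 16.5 CPM in ck2ts, 1.53 and 1.92 CPM in spt6-7SA and 1.22 and 1.09 CPM in WT (log2 4.08 ± 0.21, adjusted p = 4.73e-10). MEC1 (chromosome II 505668 to 512774), the checkpoint kinase of DNA damage, had 14.6 and 12.9 CPM in ck2ts, 1.56 and 2.02 CPM in spt6-7SA and 1.03 and 1.24 CPM in WT (log2 3.60 ± 0.20, adjusted p = 9.98e-10). APC1, the largest subunit of the anaphase-promoting complex, had 26.1 and 9.48 CPM in ck2ts, against 0.536 and 0.414 CPM in WT, with a wide spread in ck2ts (adjusted p = 0.00193, but 0.0573 without WT replicate 1), and it too overlaps an opposite-strand gene.

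In spt6-7SA the largest gains were at NUP159, BCK1, ATG2, RSF2, NUP192 and GEA1. BCK1 (chromosome X 247255 to 251691), a MAP kinase kinase kinase of the cell integrity pathway, had 8.72 and 6.86 antisense CPM in ck2ts and 4.71 and 5.19 CPM in spt6-7SA, against 0.648 and 1.09 CPM in WT. Its log2 fold change was 2.54 ± 0.23 in spt6-7SA (adjusted p = 6.81e-07). ATG2, a lipid transfer protein of autophagosome growth, had 8.74 and 4.39 CPM in ck2ts and 3.34 and 2.52 CPM in spt6-7SA, against 0.648 and 0.638 CPM in WT (log2 2.18 in spt6-7SA, adjusted p = 6.24e-05). RSF2, a zinc-finger protein that overlaps an opposite-strand gene, had 5.62 and 3.56 CPM in ck2ts and 5.87 and 5.51 CPM in spt6-7SA, against 1.71 and 1.71 CPM in WT (log2 1.73 in spt6-7SA, adjusted p = 1.22e-05). GEA1, an exchange factor for Arf at the Golgi, had 8.95 and 6.03 CPM in ck2ts and 1.26 and 1.47 CPM in spt6-7SA, against 0.374 and 0.604 CPM in WT.

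Other long genes had fewer antisense reads than WT in spt6-7SA and more than WT in ck2ts. NUM1 (chromosome IV 755628 to 763874), the cortical anchor of dynein, had 14.2 and 15.6 antisense CPM in ck2ts and 0.993 and 0.997 CPM in spt6-7SA, against 3.08 and 4.06 CPM in WT (log2 -1.83 ± 0.19 in spt6-7SA, adjusted p = 2.35e-06). NUM1 shares 20.7% of its 50-base words with other places in the genome and overlaps an opposite-strand gene. YLR278C (chromosome XII 699999 to 704024), a zinc-cluster protein of the nucleus, had 41.3 and 52.4 CPM in ck2ts and 6.24 and 6.98 CPM in spt6-7SA, against 21.0 and 20.8 CPM in WT (log2 -1.66 ± 0.15, adjusted p = 6.39e-07). GEA2 (chromosome V 111421 to 115800), the paralogue of GEA1, had 6.13 and 3.87 CPM in ck2ts and 0.166 and 0.220 CPM in spt6-7SA, against 1.89 and 2.04 CPM in WT (log2 -3.33 ± 0.32, adjusted p = 9.72e-07). The gene 366 bp beyond the 3′ end of GEA2 is URA3, whose locus is ura3-52 with an insert in ck2ts and WT and ura3Δ0 in spt6-7SA, so for GEA2 the Spt6 change and the neighbouring locus cannot be told apart.

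**Figure D3:**
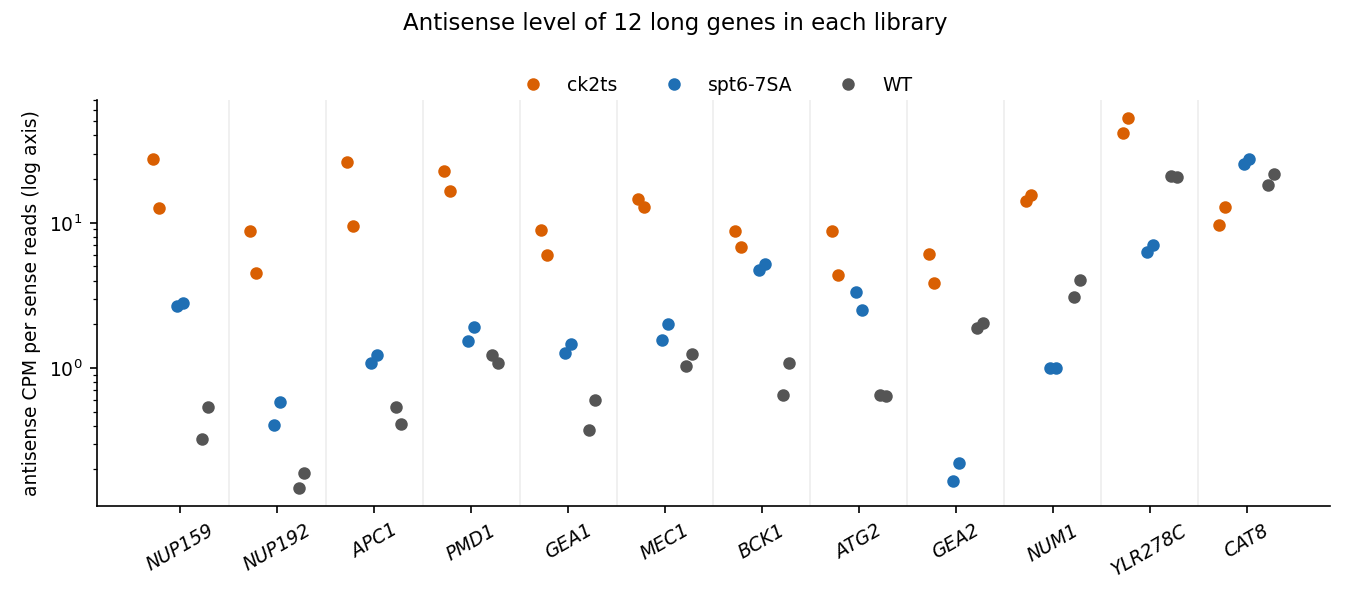
Antisense CPM of 12 long genes in each library on a log axis, in the order ck2ts, spt6-7SA and WT; points are libraries, and CPM is scaled to the sense reads of the library. NUP159, NUP192, PMD1 and MEC1 are more than 10 times higher in ck2ts than in WT, BCK1 and ATG2 are above WT in both mutants, and GEA2, NUM1 and YLR278C are below WT in spt6-7SA.

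A small set went the other way in ck2ts, with sense up and antisense down. CAT8 had 9.59 and 12.9 antisense CPM in ck2ts and 25.6 and 27.4 CPM in spt6-7SA, against 18.2 and 21.8 CPM in WT, and fell by 0.83 in ck2ts on the log2 scale (adjusted p = 0.000274). PDR11 had 22.2 and 23.4 antisense CPM in ck2ts and 34.8 and 32.6 CPM in spt6-7SA, against 32 and 32.2 CPM in WT, and fell by 0.49 in ck2ts (adjusted p = 0.00387). FKS3, which overlaps an opposite-strand gene, had 42.2 and 37.0 antisense CPM in ck2ts and 58.2 and 54.4 CPM in spt6-7SA, against 52.5 and 53.1 CPM in WT. In WT each of these 3 genes had more antisense than sense reads, and in ck2ts each had more sense than antisense reads.

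Antisense set against sense in 1 model kept these genes at the ends of the range. Of all genes tested in this model 45.1% rose and 16.4% fell in ck2ts, with a median log2 change of 0.66. In spt6-7SA 27.5% of all genes rose and 13.9% fell. Of genes from 2000 bp to under 4000 bp 60.6% rose in ck2ts, with a median of 1.32, much like the long genes. In ck2ts antisense rose relative to sense in 108 long genes and fell in 10, which is 62.1% where 61.5% of all genes were called, with a median log2 change of 1.31. In spt6-7SA it rose in 41 and fell in 23 (33.7%, where 41.4% of all genes were called), and the share was 17.4% without spt6-7SA replicate 1, 18.4% without spt6-7SA replicate 2 and 22.1% without WT replicate 1. UTP20 had one of the largest changes in ck2ts, where its sense reads fell and its antisense reads were at 8.47 and 6.21 CPM in ck2ts, 0.557 and 0.997 CPM in spt6-7SA and 0.710 and 0.897 CPM in WT (log2 4.73 ± 0.53, adjusted p = 1.49e-06). FKS3 lay at the other end in ck2ts (log2 -3.04 ± 0.27, adjusted p = 1.45e-07).

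Where along the gene the antisense reads lay differed between the mutants and WT. Over the 166 long genes without an opposite-strand overlap, the 5′ part held 12.6 and 11.6% of the antisense reads in ck2ts and 15.2 and 15.3% in spt6-7SA, against 5.98 and 6.81% in WT. The 3′ part held 19.5 and 24.1% in ck2ts, 22.4 and 23.5% in spt6-7SA, against 30.8 and 30.7% in WT. Both mutants were separate from WT at both ends (two-sided exact permutation tests, p = 0.333 each, the smallest possible). In summed levels, the 5′ parts had 117 and 87.1 CPM in ck2ts and 74.4 and 78.2 CPM in spt6-7SA, against 24.5 and 30.5 CPM in WT, whereas the 3′ parts had 180 and 181 CPM in ck2ts and 110 and 120 CPM in spt6-7SA, against 126 and 137 CPM in WT. The 2983 other genes of at least 1000 bp without overlap had a flatter profile in WT, with 12.6 and 13.1% in the 5′ part and 17.5 and 17.8% in the 3′ part. Their 5′ part held 14.4 and 13.8% in ck2ts, with 16.8 and 16.7% in spt6-7SA, and their 3′ part 13.0 and 14.6% in ck2ts, with 14.3 and 14.1% in spt6-7SA, so a lower 3′ share than in WT was found in these genes too. A few genes weigh heavily in these sums. Without the 10 long genes with most antisense reads, 14714 and 12294 of 32821 and 25927 reads were left in WT. The 5′ part then held 17.1 and 16.5% in ck2ts, 26.4 and 26.6% in spt6-7SA, against 7.26 and 8.84% in WT, and the 3′ part 21.4 and 29.3% in ck2ts, 29.4 and 29.6% in spt6-7SA, against 41.6 and 38.5% in WT. The extent of a part is not given in the sources used here, and nested genes place it only roughly, between about the outer 10% and 20% of the gene at each end.

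**Figure D4:**
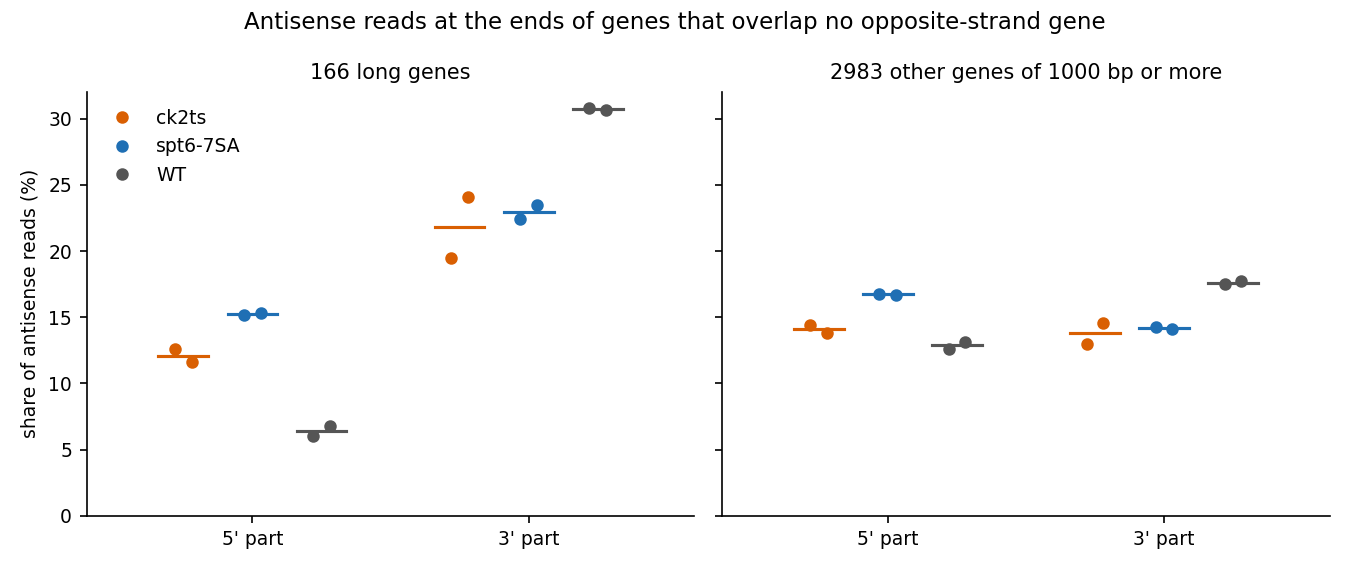
Share of antisense reads in the 5′ and the 3′ part, in each library, for the 166 long genes without opposite-strand overlap and for 2983 other genes of at least 1000 bp, in the order ck2ts, spt6-7SA and WT. In long genes the 5′ share is 11.6 to 15.3% in the mutants and 5.98 to 6.81% in WT, and the 3′ share is lower in the mutants than in WT.

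Gene by gene, most long genes rose at the 5′ part in both mutants. In ck2ts 65.8% of long genes passed at the 5′ part, where 50.6% of the 3454 genes tested were called and 46.2% upward. Antisense reads of the 5′ part rose in 123 long genes and fell in 2, with a median log2 fold change of 2.17. In spt6-7SA they rose in 114 and fell in 0, which is 60% where 40.1% of all genes were called and 38.4% upward, with a median of 2.09. Setting the 9 genes with no WT read at their bound changed these medians to 2.13 and 2.06. Of the 1066 genes from 2000 bp to under 4000 bp, 57.1% rose at the 5′ part in ck2ts and 52.0% in spt6-7SA. In the middle of the gene 121 rose and 14 fell in ck2ts (71.1%, where 71.2% of all genes were called), and 38 rose and 30 fell in spt6-7SA (35.8%, where 39.3% were called). The spt6-7SA balance in the middle turned to 20 up and 29 down without WT replicate 1, and the share was 23.2% without spt6-7SA replicate 1. At the 3′ part 68 rose and 15 fell in ck2ts (43.7%, where 35.9% were called, and 27.4% without WT replicate 1). In spt6-7SA 10 rose and 31 fell there (21.6%, where 15.4% were called and 6.42% were called downward), with a median of -0.38 against 0.03 for all genes, and the counts were 7 up and 12 down without spt6-7SA replicate 1, 4 up and 17 down without WT replicate 1, 4 up and 19 down without spt6-7SA replicate 2 and 7 up and 20 down without WT replicate 2. WT libraries had 3 reads or fewer in the 5′ part of 61 of the 190 genes, so single-gene values there are coarse.

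**Figure D5:**
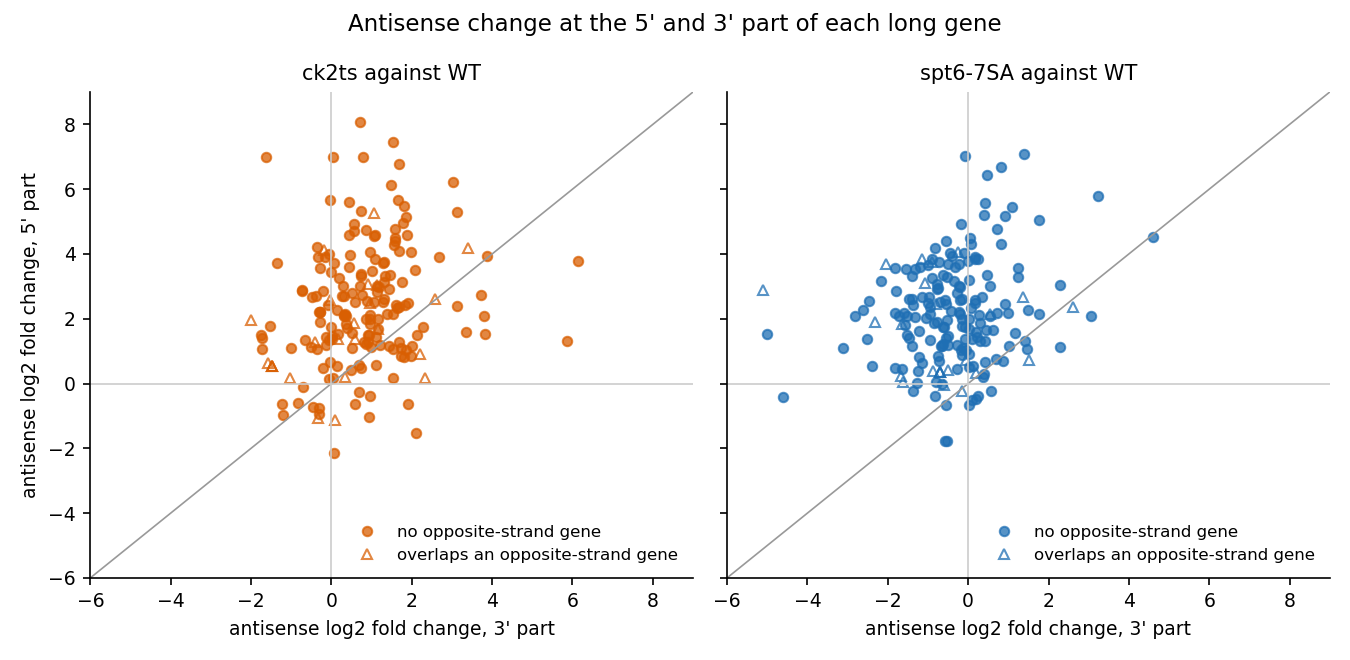
Log2 fold change of antisense reads in the 3′ part (x axis) and the 5′ part (y axis) of each of the 190 long genes, ck2ts against WT on the left and spt6-7SA against WT on the right; circles are genes with no opposite-strand overlap, triangles overlap such a gene, and the diagonal marks equal change. The 5′ change is above the 3′ change in 151 genes in ck2ts and 171 in spt6-7SA. Shorter genes were not counted in this way. Genes from 2000 bp to under 4000 bp also had a higher median change at the 5′ part (1.88 in ck2ts, 1.71 in spt6-7SA) than at the 3′ part (0.71 and -0.03). The 9 genes with no 5′ read in WT have fitted values that depend on the fit's prior.

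The same separation of ends was tested as a ratio in the 79 long genes with enough antisense reads in both parts. The 3′ to 5′ ratio fell in 47 and rose in 1 in ck2ts, which is 60.8% where 39.7% of all genes were called and 32.1% downward, with a median log2 change of -2.04. In spt6-7SA it fell in 56 and rose in 0, which is 70.9% where 35.2% were called and 32.7% downward, with a median of -2.70. A gene enters this test on its reads over all libraries, so a gene that had few reads in WT could enter through the mutants. Those counts are therefore a description. Over the 29 long genes that had enough reads in WT alone, 15 fell and 1 rose in ck2ts, which is 55.2% where 29.3% of the 679 genes so chosen were called and 21.6% downward. In spt6-7SA 17 of the 29 fell and 0 rose, which is 58.6% where 22.2% were called and 19.9% downward. For 171 other genes from 2000 bp to under 4000 bp the shares called were 40.9% in ck2ts and 35.1% in spt6-7SA. Combining the ends, 47 long genes rose at both in ck2ts and 8 in spt6-7SA. Those that rose at the 5′ part and fell at the 3′ part were 11 in ck2ts and 17 in spt6-7SA. Shorter genes were not counted in this way, so these counts have no share of all genes beside them and cannot be read as particular to long genes. Genes from 2000 bp to under 4000 bp had median log2 fold changes at the 5′ part of 1.88 in ck2ts and 1.71 in spt6-7SA. At their 3′ part the medians were 0.71 and -0.03, so a larger 5′ change was found in these genes too.

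MEC1 had 467 and 331 antisense reads in its 5′ part in ck2ts and 46 and 63 in spt6-7SA, against 3 and 2 in WT. In its 3′ part it had 88 and 75 reads in ck2ts and 22 and 21 in spt6-7SA, against 42 and 24 in WT. MEC1 was thus higher in its 5′ part than WT in all 4 mutant libraries, and its few 5′ reads in WT keep it outside the 29 genes above. SNT2, KRE5, SWR1 and PRP8, given below, likewise had too few 5′ reads in WT to be among these 29, so their values are a description. SNT2, which overlaps an opposite-strand gene, had 115 and 69 reads in the 5′ part in ck2ts and 102 and 97 in spt6-7SA, against 8 and 4 in WT, and much the same number in the 3′ part, at 28 and 15 in ck2ts, 22 and 24 in spt6-7SA and 26 and 29 in WT. KRE5, a glucosyltransferase-like protein needed for beta-glucan, had 95 and 39 reads in the 5′ part in ck2ts and 14 and 18 in spt6-7SA, against 6 and 2 in WT.

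At some genes the 3′ part held fewer antisense reads in spt6-7SA than in WT. SWR1 (chromosome IV 1135932 to 1140476), the ATPase that installs the histone variant H2A.Z, had 31 and 17 antisense reads in its 5′ part in ck2ts and 17 and 21 in spt6-7SA, against 1 and 2 in WT. In its 3′ part it had 99 and 74 in ck2ts but 8 and 9 in spt6-7SA, against 30 and 31 in WT. PRP8, the core splicing factor and likewise overlapped by an opposite-strand gene, had 35 and 47 reads in the 3′ part in ck2ts and 4 and 8 in spt6-7SA, against 26 and 25 in WT, and 25 and 13 in the 5′ part in ck2ts and 29 and 36 in spt6-7SA, against 4 and 1 in WT. TOM1, a ubiquitin ligase of nuclear quality control, had 69 and 44 reads in the 3′ part in ck2ts and 1 and 4 in spt6-7SA, against 21 and 9 in WT. In spt6-7SA the 3′ part fell in 16.3% of all long genes and rose in 5.26%, and it fell in 6.42% of all genes tested. It fell in 5 of 13 actin and motor genes, 3 of 7 RNA processing genes and 3 of 7 ubiquitin and proteasome genes. None of the first 2 lists rose. With 1 library left out these counts were 4, 1 to 2 and 0 to 2, the last 2 lowest without spt6-7SA replicate 1. APC1 had 0 reads in the 3′ part in both spt6-7SA libraries, against 85 in both ck2ts libraries together and 9 in both WT libraries together, which puts it at least 32.1-fold lower than in ck2ts, with 3 reads over the group as the floor.

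The 5′ rise was found across roles. It passed in 10 of 12 DNA replication and repair genes in ck2ts and 11 in spt6-7SA, and in 9 of 13 actin and motor genes in both, where 64.7% of all long genes rose in ck2ts and 60% in spt6-7SA, so the actin and motor genes lay near the other long genes. In spt6-7SA 7 of the DNA replication and repair genes passed without spt6-7SA replicate 1. For the actin and motor genes 4 passed in ck2ts without ck2ts replicate 1 and 3 in spt6-7SA without WT replicate 1. LTE1, a regulator of mitotic exit, had 18 and 11 antisense reads in the 5′ part in ck2ts and 13 and 22 in spt6-7SA, against 0 in both WT libraries, at least 11.2-fold and at least 12-fold higher. These bounds set 3 reads over the 2 WT libraries in place of 0 and cover counting error only. TEL1, the other large checkpoint kinase besides MEC1, had 36 and 29 reads in the 5′ part in ck2ts and 27 and 36 in spt6-7SA, against 2 and 4 in WT.

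PDR18 was the exception in ck2ts, where its 3′ to 5′ antisense ratio rose by 1.34 on the log2 scale (adjusted p = 0.000414). It had 450 and 305 reads in the 3′ part in ck2ts and 293 and 280 in spt6-7SA, against 261 and 186 in WT, and 156 and 128 in the 5′ part in ck2ts and 242 and 276 in spt6-7SA, against 278 and 162 in WT.

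Between the mutants, antisense reads of 9 long genes were higher and 114 lower in spt6-7SA than in ck2ts, which is 64.7% where 47.6% of all genes were called and 32.5% were called downward, with a median log2 fold change of -1.03 against -0.26 for all genes. In the 5′ part 14 were higher and 29 lower (22.6%, where 26.2% of all genes were called, 12.1% without spt6-7SA replicate 2 and 13.2% without spt6-7SA replicate 1), and without ck2ts replicate 1 the balance there was 21 higher and 19 lower. In the middle 10 were higher and 127 lower (72.1%, where 57% were called), and in the 3′ part 10 were higher and 80 lower (47.4%, where 26.3% were called). Genes from 2000 bp to under 4000 bp lay between the long genes and all genes here. Over the whole gene 59.7% of them were called, 51.9% downward, with a median of -0.73. In their middle 62.1% were called and in their 3′ part 32.9%. The median difference was largest in genes of at least 6000 bp, with median log2 fold changes over the whole gene of -0.93 under 5000 bp, -0.75 from 5000 bp to under 6000 bp and -1.58 from 6000 bp. NUM1 was lower in spt6-7SA by 3.90 (log2 -3.90 ± 0.19, adjusted p = 6.73e-10), and CAT8 was higher by 1.24 (adjusted p = 1.29e-05). TSC11, a subunit of TOR complex 2, was higher by 0.82 (adjusted p = 0.000615), with 13.9 and 17.6 antisense CPM in spt6-7SA and 8.30 and 9.53 CPM in ck2ts, and 9.92 and 12.5 CPM in WT.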

How the data were processed

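Stranded total RNA libraries depleted of ribosomal RNA were read as 50-base single-end reads. Per the labels' protocols, the authors trimmed with Trimmomatic, aligned with bwa to R64 and used SAMtools to count the reads of each strand over the exons in Ensembl release 77; tool versions are not given in the sources used here. As deposited, values are whole-number read counts per gene, strand and part, not normalized.

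Members and role lists were chosen with earlier results of these data known. Counts of all genes entered edgeR 4.0.16 (limma 3.58.1, R 4.3.3) with robust quasi-likelihood fits over the 6 libraries and TMM scaling. Tests of whole genes used a minimum of 10 reads in the default filter. Antisense reads were scaled by the sense library sizes. Antisense against sense, and the 3′ against the 5′ part, were interaction terms with a library term. Tests of parts took single-line nuclear genes of at least 1000 bp. For the 3′ against the 5′ part these needed a mean of at least 20 sense or 10 antisense reads in each part. For antisense reads of a single part any read there sufficed. P-values were adjusted by Benjamini-Hochberg over all genes tested, and adjusted p-values in the text come from these fits. The planned fits and that of antisense reads of the 5′ part were first tested on simulated data. Those of the middle and the 3′ part, and the alternatives, were not. Class totals were compared by exact permutation (scipy 1.17.1).

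Genes named are those that the constructs touch, the 6 longest, the largest passing changes without overlap of libraries (8 per direction for sense; 6 rises and 3 falls for antisense), and members of each role list. Part extent was checked on genes nested in longer ones: 0 of 15 that reach only into the outer 10% had more reads than the part. Of those that reach 12 to 20% into the longer gene, 16 of 31 had more. The extent is thus placed only between about 10% and 20%. Tests of the antisense reads of single parts and the filter on WT reads alone were added after seeing the data. Alternatives were DESeq2 1.42.0, other scalings and filters, the length threshold, a block for replicate number and fits without each library in turn. The 50 long genes with several lines were left out by the length rule's single-line condition. One of the role lists is not reported here.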

Additional observations from a re-analysis of the deposited data

How the results depend on the processing

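Values are the percentage of long genes tested that passed. With a library left out, the lone library of its strain is assumed to vary like those of the other strains. Leaving out 1 library at a time gave 43.7 to 54.7% (ck2ts against WT), 20 to 30% (spt6-7SA against WT) and 23.2 to 37.9% (spt6-7SA against ck2ts) for sense reads. For antisense reads, in the same order of comparisons, it gave 62.6 to 81.1%, 30.5 to 41.6% and 48.4 to 73.2%, for antisense against sense 47.9 to 69.0%, 17.4 to 32.1% and 33.7 to 66.3%, and for the sense 3′ to 5′ ratio 0 to 3.16%, 0 in every fit and 0 to 4.21%. The antisense 3′ to 5′ ratio gave 50.0 to 65.4%, 48.7 to 68.7% and 17.6 to 43.1%. Antisense reads of the 5′ part gave 50.0 to 71.1%, 41.1 to 59.5% and 12.1 to 26.8%, those of the middle 60.5 to 74.7%, 23.2 to 29.0% and 52.1 to 76.8%, and those of the 3′ part 27.4 to 42.1%, 10.0 to 14.2% and 31.6 to 45.8%. With only the 2 groups compared in the fit, the sense 3′ to 5′ ratio passed in 3.68% for ck2ts and 1.06% for spt6-7SA against WT. With a length threshold of 3000 bp it passed in 3.84%, 0.213% and 2.99% for the 3 comparisons, and with 5000 bp in 11.1% for ck2ts against WT. The antisense 3′ to 5′ ratio passed in 36.8% for ck2ts against WT when any read in each part sufficed, an alternative chosen after seeing the data. The balance of rises and falls turned with a length threshold of 5000 bp for sense reads of spt6-7SA against ck2ts (16 higher, 14 lower) and for the middle in spt6-7SA (8 up, 10 down), with antisense totals for antisense reads in spt6-7SA (43 up, 45 down), and without single libraries as given with the results. The cause of these shifts was not tested. Over all alternatives, values of single genes kept their direction and side of the threshold 1931 times, no longer passed 206 times, newly passed 3 times and moved by more than the spread 52 times. Few antisense reads in WT limit single-gene values at the 5′ part.

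The libraries share only the numbers 1 and 2, and the labels name no shared batch, so the numbers do not pair them by design, although same-numbered libraries deviated together (correlations 0.531, 0.369 and 0.452 over genes). With a replicate block, sense reads passed in 59.0% of long genes for spt6-7SA against ck2ts, and the sense 3′ to 5′ ratio in 26.3% for ck2ts and 7.37% for spt6-7SA against WT and 21.1% for spt6-7SA against ck2ts.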
